A study of Homo sapiens with 12 samples.

Results

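The replication-dependent histone genes are described here in Jurkat, an established human leukemia line of T cell origin. Members were all genes of the expression table whose symbol has the form H1-1 to H1-6, H2AC, H2BC, H3C or H4C with a number, or an older HIST symbol. The rule used names and no measured values, and it found 66 of 60671 genes: 6 of class H1, 16 of H2A, 17 of H2B, 13 of H3 and 14 of H4. The 12 RNA-seq libraries fall into 4 groups of 3. NC cells, which the labels call wild type and the study's methods describe as carrying the pHIV7/SFFV-GFP lentiviral vector, were cultured for 48 h with DMSO (NC+DMSO) or with vincristine (NC+VCR). PTPN21 cells, which carry the tyrosine phosphatase PTPN21 with a 3×FLAG tag behind the same SFFV viral promoter, received the same treatments (PTPN21+DMSO and PTPN21+VCR). VCR is a vinca alkaloid that binds tubulin and blocks the assembly of microtubules, and DMSO is its solvent. The VCR dose of these libraries and whether they came from separate cultures are not given in the sources used here, so the p-values measure the spread between these libraries, which may be technical.

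Core histones H2A, H2B, H3 and H4 form the protein spool of the nucleosome, and linker histone H1 binds the DNA where it enters and leaves. Cells copy their chromatin in S phase, and the replication-dependent genes supply histones for it: their mRNAs rise at the start of S phase and are degraded when DNA synthesis ends. These mRNAs lack introns in most cases and usually end in a conserved stem-loop instead of a poly(A) tail. The stem-loop is bound by SLBP, and transcription of the clusters depends on NPAT, a target of cyclin E and CDK2.

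The stem-loops that most strongly mark this family are shown for 4 members whose values are given below. They were found in the GENCODE 29 transcripts (GRCh38) by the 16-letter pattern GGNNCTNTNNANNNCC on the transcript strand, with the 6 outer positions on each side able to pair (G with T allowed). Capitals mark the 16 letters, and T stands for U.
H2AC18: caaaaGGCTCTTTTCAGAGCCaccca
H2BC4: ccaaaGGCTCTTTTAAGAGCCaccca
H3C14: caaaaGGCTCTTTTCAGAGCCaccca
H4C14: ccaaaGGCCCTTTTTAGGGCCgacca
Of the 64 members with a transcript model, 27 held such a stem-loop. The form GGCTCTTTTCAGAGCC occurred in 15 genes of classes H2A, H2B and H3, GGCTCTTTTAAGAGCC in 4, and the forms with GGCCC at the 5′ side in H4 genes only: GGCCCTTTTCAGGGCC in 4 and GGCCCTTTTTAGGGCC in 3. H2AC11 held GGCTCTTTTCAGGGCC. In 30 of the 64 genes every model ended at the stop codon, so no stem-loop could be present in it. Among the 27 genes, 19 had a model that ran at least 100 bases past the stem-loop, and 18 had one with AATAAA or ATTAAA in its last 40 bases, the signal for a poly(A) tail. H2AC6, for example, had 1114 bases after the stem-loop in its protein-coding model, and H3C14 had 1154. The model of H4C11 ended 6 bases after the stem-loop, so its AATAAA or ATTAAA match lies before the stem-loop.

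The 150 bases before the transcription start are shown for the gene with the highest level, for an H2A and H2B pair that start 246 bases apart in opposite directions, and for an H4 gene on chromosome 1. They are RefSeq sequences of GRCh38.p14, 5′ to 3′ on the strand of the gene, and capitals mark the motifs searched on both strands: TATAAA, the core promoter element bound by TBP, CCAAT, the element bound by NF-Y, the octamer ATTTGCAT, bound by Oct-1, and AAACACA, the element typical of linker histone promoters.
H1-2 (chr6:26056471-26056620, minus strand): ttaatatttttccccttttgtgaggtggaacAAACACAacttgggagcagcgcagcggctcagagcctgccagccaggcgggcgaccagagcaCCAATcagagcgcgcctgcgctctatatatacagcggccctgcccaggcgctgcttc
H2BC4 (chr6:26123927-26124076, minus strand): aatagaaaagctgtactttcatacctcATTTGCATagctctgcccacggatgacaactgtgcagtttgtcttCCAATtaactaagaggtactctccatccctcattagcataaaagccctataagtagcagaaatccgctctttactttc
H2AC6 (chr6:26124022-26124171, plus strand): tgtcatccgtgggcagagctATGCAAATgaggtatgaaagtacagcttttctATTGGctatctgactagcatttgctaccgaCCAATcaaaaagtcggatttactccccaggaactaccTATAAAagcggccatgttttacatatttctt
H4C14 (chr1:149832507-149832656, plus strand): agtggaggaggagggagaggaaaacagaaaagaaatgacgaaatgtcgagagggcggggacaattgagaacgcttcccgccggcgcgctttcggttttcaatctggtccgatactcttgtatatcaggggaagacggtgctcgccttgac
The octamer of H2BC4 and that of H2AC6 are the same 8 bases read from the 2 strands. A promoter entry (300 bases, from 250 before the start to 50 after it) was found for 61 members. TATAAA was in 42 of them against 14% of all 27305 genes with a promoter entry, and CCAAT in 52 against 39.7%. A gene was counted if any of its entries matched. The octamer was in 26 against 2.19%, among them 11 of 15 H2A and 14 of 17 H2B promoters but 1 of 11 H3 promoters and none of the 6 H1 and 12 H4 promoters. AAACACA was in 9 against 6.94%, among them all 6 H1 promoters. CCAAT was found in 3 of the 12 H4 promoters. A match describes the sequence only, and a promoter without one may hold another form.

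FPKM, fragments scaled to gene length and to the fragments of the library, was deposited without counts. From the steps in the values of single-exon genes of over 500 bases, depth was estimated within a set range. It was 14600000 to 16500000 fragments in NC+DMSO, 17000000 to 18100000 in NC+VCR, 20800000 to 22400000 in PTPN21+VCR and 22700000 to 24200000 in PTPN21+DMSO. By these estimates every PTPN21 library was deeper than every NC library. A step of 1 fragment could not be separated from 2, so a depth may be off by a factor of 2 and the order is uncertain. At the median estimate for NC+DMSO, 1 FPKM of a 500-base transcript is about 7.4 fragments. PTPN21 measured 0.0212 to 0.569 FPKM in the 6 NC libraries and 4.34 to 10.5 in the 6 PTPN21 libraries. The labelled cell type did not match its defining markers: of 13 T cell marker genes, 11 had a mean under 1 FPKM and CD5, CD28, CD247 and LCK were listed at 0 in all 12 libraries. CD3D, at a mean of 110 FPKM, held most of the summed T cell level, which was 64.5 to 98.6 in NC+DMSO, 110 to 137 in NC+VCR, 120 to 146 in PTPN21+DMSO and 109 to 115 in PTPN21+VCR. All 6 B cell markers had means under 1 FPKM. Of 6 myeloid markers, CD68 (279 FPKM), LYZ (12.3) and ITGAM (1.5) exceeded 1, and the summed level was 424 to 478 in NC+DMSO, 188 to 256 in NC+VCR, 298 to 360 in PTPN21+DMSO and 128 to 185 in PTPN21+VCR. CD68 was lower with VCR by -0.98 (limma adjusted p = 0.00081) and -1.14 (limma adjusted p = 0.000338) on the log2 scale in NC and PTPN21 cells. The part of these differences in the histone results was not tested.

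Summed over all 66 members, histone FPKM was about 3 times lower with VCR in both kinds of cell. The sum was 2434, 2622 and 1966 FPKM in NC+DMSO and 820, 717 and 815 in NC+VCR. It was 3055, 2669 and 2769 FPKM in PTPN21+DMSO and 946, 943 and 1026 in PTPN21+VCR. No VCR library reached any DMSO library. The mean was 2.99-fold lower in NC cells and 2.91-fold lower in PTPN21 cells. These are descriptions of sums, for which no test was made. In bulk RNA, fewer cells in S phase and less histone RNA per cell cannot be told apart.

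The classes contributed unequally. H1 was the largest, at 1064 ± 199 FPKM (SD, n = 3) in NC+DMSO, and was 4.12-fold lower with VCR in NC cells and 3.8-fold lower in PTPN21 cells. H2A measured 609 ± 76.4 in NC+DMSO and was 3.31-fold and 3.38-fold lower. H2B measured 532 ± 60.5 and was 1.85-fold lower in NC cells, the smallest difference of the 5 classes there, and 1.76-fold lower in PTPN21 cells. H4 measured 97.6 ± 8.8 and was 2.53-fold and 2.77-fold lower, and H3 measured 38.6 ± 1.78 and was 2.55-fold and 1.74-fold lower. The summed level of H1 was above that of H2A and H2B in the DMSO groups, and that of H2B was above that of H1 in NC+VCR (288 ± 28 against 258 ± 28.4), where the libraries of the 2 classes overlapped. H1-2 alone made 42.4% to 46.5% of the summed FPKM in NC+DMSO and 31.1% to 34.1% in NC+VCR, and 47.5% to 49.5% in PTPN21+DMSO against 36.6% to 37.2% in PTPN21+VCR. Members took 0.378% to 0.451% of all FPKM in NC+DMSO and 0.121% to 0.139% in NC+VCR.

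**Figure D1:**
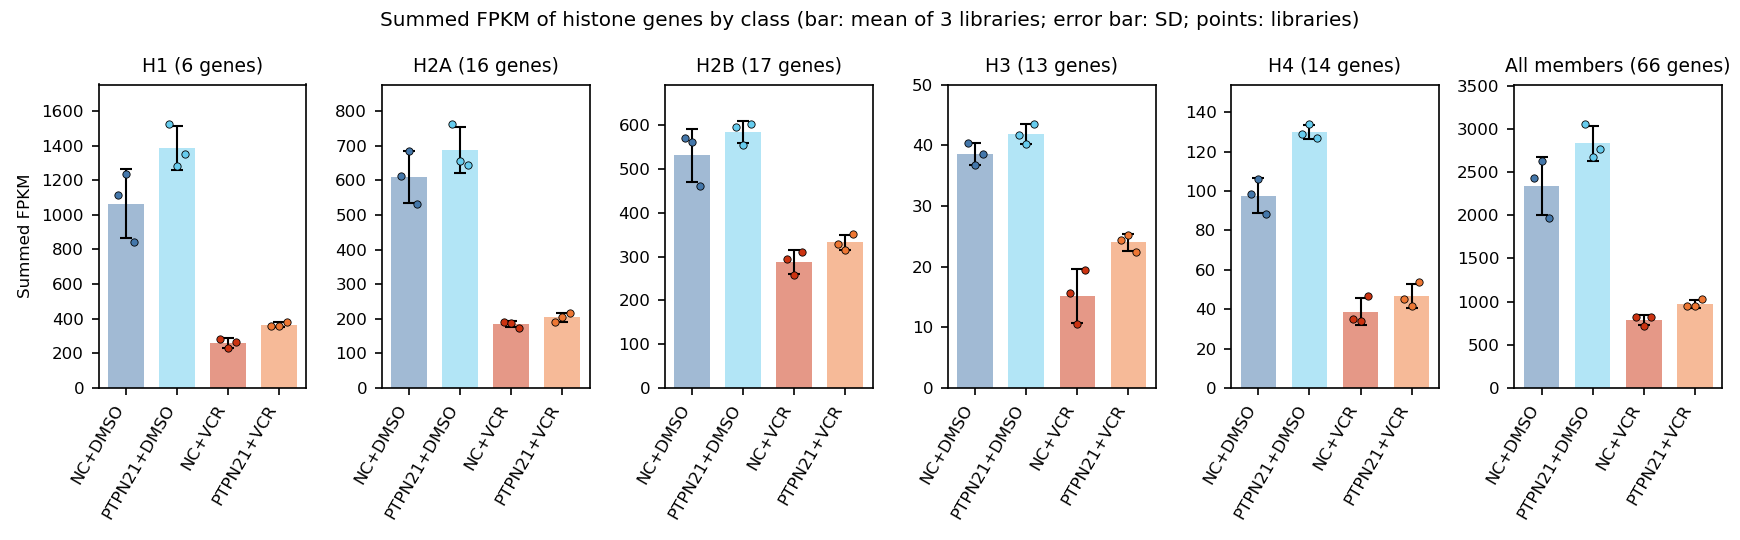
Summed FPKM (y axis, linear from 0, own scale per panel) of each histone class and of all 66 members in the 4 groups. Bars are means of 3 libraries, error bars SD and points libraries. In every panel the 6 VCR libraries lie below the 6 DMSO libraries.

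For the tests, log2(FPKM + 1) was fitted with limma over the 11591 genes with a mean of at least 1 FPKM over all libraries, with Benjamini-Hochberg adjustment and a threshold of 0.05. This scale understates the change of genes at low FPKM. Of the 66 members, 38 passed the filter: 3 H1, 11 H2A, 12 H2B, 4 H3 and 8 H4 genes. The counts below hold for those 38 and not for all members, since a gene that is high in a single condition may pass through that condition. The members nearest to the filter were H2AC20 (mean 1.71 FPKM) inside it and H4C11 (0.944) outside it.

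In NC cells, VCR lowered 29 of the 38 tested members and raised none (76.3%, beside 28.3% of all tested genes called lower, 7.91% called higher and 36.2% called in either direction). The median log2 change of the 38 was -1.05, beside -0.36 over all tested genes, and single changes ran from -2.38 (H4C15) to -0.07 (H2AC15). In 30 members all 3 NC+VCR libraries lay below all 3 NC+DMSO libraries (78.9%, against 33.9% of all tested genes), and in none were they all above (10.2% of all tested genes). By class, 2 of 3 H1, 7 of 11 H2A, 11 of 12 H2B, all 4 H3 and 5 of 8 H4 genes passed the test.

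In PTPN21 cells, VCR lowered 22 of the 38 and raised none (57.9%, beside 19.3% of all tested genes called lower, 9.22% called higher and 28.5% called in either direction). The median log2 change was -0.94, beside -0.17 over all tested genes, with a range from -2.65 (H4C14) to 0.39 (H2AC15). The groups did not overlap, with VCR lower, in 25 members, which is 65.8% against 33.3% of all tested genes, and in none with VCR higher (17.0% of all tested genes). By class, 2 of 3 H1, 6 of 11 H2A, 8 of 12 H2B, 2 of 4 H3 and 4 of 8 H4 genes passed. In the NC comparison a median ratio scaling of the libraries moved the median of all genes from -0.36 to -0.03 and left 18 members called lower, without H2AC8, H2AC11, H2AC17, H2BC5, H2BC7, H2BC9, H2BC12, H3C2, H3C10, H4C5 and H4C8. In PTPN21 cells it left 20, without H1-4 and H2BC12. The shares of all tested genes called lower given above belong to the fit as deposited. None is given for this scaling, so these 2 counts have no share of all genes beside them. Measured against the median of all genes, the median of the members in NC cells was -0.69 as deposited and -0.65 after that scaling, and in PTPN21 cells -0.77 and -0.75.

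**Figure D2:**
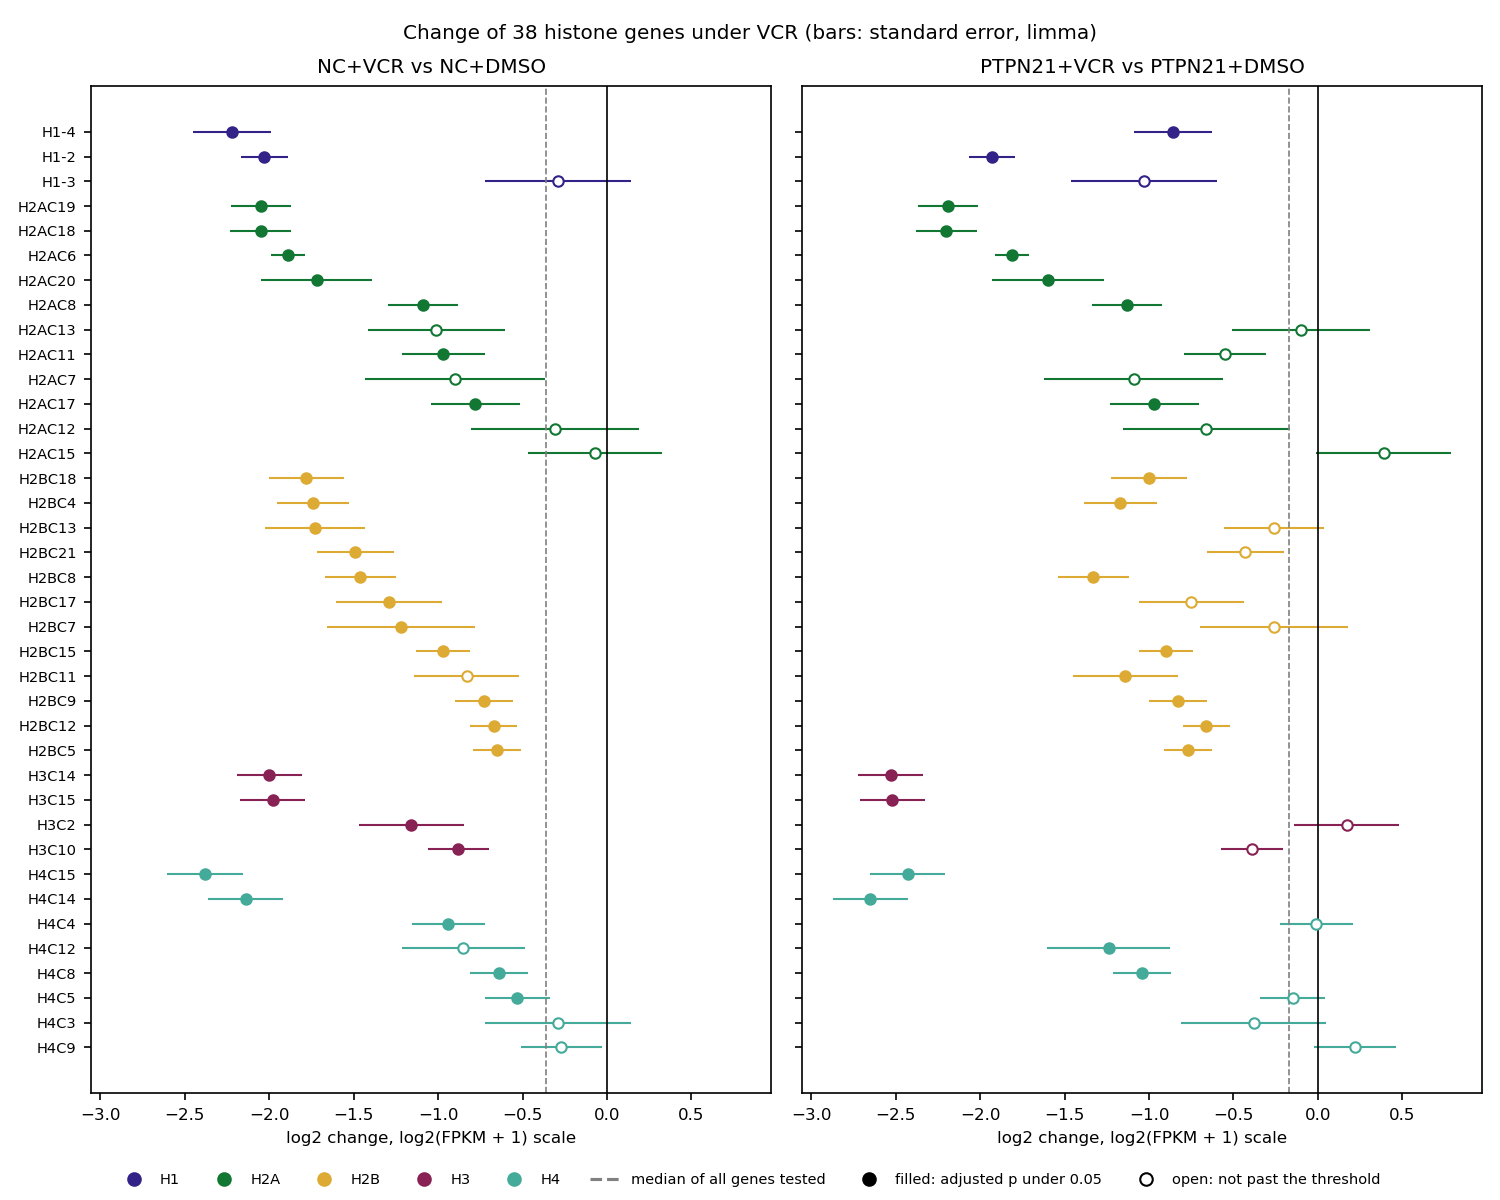
Log2 change (x axis, log2(FPKM + 1) scale) with its standard error for the 38 tested histone genes (y axis), NC cells left and PTPN21 cells right. Filled points passed an adjusted p of 0.05 in limma, the dashed line is the median of all tested genes, and 33 of the 38 points on the left and 32 on the right lie below it.

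Among the linker histones, H1-2 and H1-4 fell with VCR in both kinds of cell. H1-2 (ENSG00000187837), the most abundant member, measured 1097, 1218 and 833 FPKM in NC+DMSO, 280, 223 and 261 in NC+VCR, 1513, 1269 and 1342 in PTPN21+DMSO and 352, 348 and 376 in PTPN21+VCR. Each VCR library was below every DMSO library. Its log2 change was -2.03 (standard error 0.139, limma adjusted p = 1.94e-06) in NC cells and -1.93 (0.139, limma adjusted p = 2.35e-06) in PTPN21 cells. H1-4 measured 12.1, 12.3 and 8.38 FPKM in NC+DMSO, 1.43, 1.87 and 1.31 in NC+VCR, 7.5, 9.77 and 7.76 in PTPN21+DMSO and 2.88, 4.44 and 5.32 in PTPN21+VCR. Groups with VCR were lower without overlap, and NC+VCR was the lowest of the 4. The log2 change of H1-4 was -2.22 (standard error 0.231, limma adjusted p = 4.06e-05) in NC cells and -0.86 (0.231, limma adjusted p = 0.0156) in PTPN21 cells, and the latter passed in 16 of 21 alternative settings. It did not pass after median ratio scaling (-0.70), with the GC and length correction (-0.51, limma adjusted p = 0.128, or 0.133 with the replicate block), without PTPN21+DMSO replicate 2 (-0.76, limma adjusted p = 0.0637) or without PTPN21+VCR replicate 1 (-0.66, limma adjusted p = 0.0687). H1-3 measured 1.71 to 3.04 FPKM in NC+DMSO, 1.01 to 2.75 in NC+VCR, 2.45 to 3.19 in PTPN21+DMSO and 0.0375 to 3.16 in PTPN21+VCR. Its groups overlapped and it did not pass the test (limma adjusted p = 0.624 and 0.0930), except in PTPN21 cells without PTPN21+VCR replicate 2 (-1.63, limma adjusted p = 0.00442). Of the other linker genes, H1-6, a testis form, had a mean of 0.662 FPKM, and H1-1 and H1-5 were listed at 0 in all 12 libraries.

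H2A was led by H2AC18 and H2AC19 on chromosome 1 and by H2AC6 on chromosome 6, and all 3 fell about 4-fold. H2AC18 (ENSG00000203812) measured 172, 206 and 144 FPKM in NC+DMSO, 50.4, 31.5 and 43.1 in NC+VCR, 245, 191 and 195 in PTPN21+DMSO and 43.9, 42.9 and 47.7 in PTPN21+VCR. The VCR and DMSO libraries were far apart, and the changes were -2.05 (standard error 0.180, limma adjusted p = 1.22e-05) and -2.20 (0.180, limma adjusted p = 6.44e-06) in NC and PTPN21 cells. H2AC19 is its near-identical copy. The 549 bases of H2AC18 are all contained in H2AC19, and the ratio of their FPKM stayed between 0.959 and 0.978 in all libraries, so the values of the 2 genes are uncertain and not independent. H2AC6 measured 131, 137 and 121 FPKM in NC+DMSO, 32.8, 34.2 and 35.5 in NC+VCR, 124, 127 and 121 in PTPN21+DMSO and 35.5, 35.9 and 32.9 in PTPN21+VCR. Libraries of a group differed little, and the 2 VCR groups overlapped each other. H2AC6 changed by -1.89 (standard error 0.1, limma adjusted p = 3.17e-07) in NC cells and -1.81 (0.1, limma adjusted p = 6.17e-07) in PTPN21 cells.

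The other 8 tested H2A genes had means from 1.71 to 53.5 FPKM. H2AC20, H2AC8 and H2AC17 passed in both VCR comparisons, and H2AC11 passed in NC cells (-0.97, limma adjusted p = 0.00949) but not in PTPN21 cells (-0.55, limma adjusted p = 0.112). H2AC20 was listed at 0 in 3 VCR libraries and at 1.84 to 4.52 FPKM in the 6 DMSO libraries. H2AC7, H2AC12, H2AC13 and H2AC15 passed in neither. H2AC13 varied strongly inside the groups, with 12.9, 32.4 and 12.1 FPKM in NC+VCR and 48.5, 22.6 and 41.6 in NC+DMSO.

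H2B held the 2 most abundant core histone genes of chromosome 6, H2BC12 and H2BC5, whose falls were smaller than those of the H1 and H2A leaders. H2BC12 (ENSG00000197903) measured 215, 223 and 158 FPKM in NC+DMSO, 134, 108 and 129 in NC+VCR, 254, 218 and 236 in PTPN21+DMSO and 147, 146 and 154 in PTPN21+VCR. No VCR library reached a DMSO library of the same cells, but the nearest values, 134 and 158 FPKM, were close. Its changes were -0.67 (standard error 0.139, limma adjusted p = 0.00326) and -0.66 (0.139, limma adjusted p = 0.00424). H2BC5 measured 131, 141 and 103 FPKM in NC+DMSO, 85.6, 68.0 and 83.5 in NC+VCR, 156, 142 and 148 in PTPN21+DMSO and 89.7, 75.6 and 95.1 in PTPN21+VCR. It was lower with VCR without overlap and changed by -0.65 (standard error 0.142, limma adjusted p = 0.00441) and -0.77 (0.142, limma adjusted p = 0.00200). After median ratio scaling the NC calls of both genes and the PTPN21 call of H2BC12 were lost, with limma adjusted p = 0.270 and 0.303 in NC cells for H2BC12 and H2BC5. With the GC and length correction H2BC12 changed by -0.23 in PTPN21 cells and did not pass (limma adjusted p = 0.215, or 0.223 with the replicate block).

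H2BC4 stood between the leaders and the rest. It measured 71.4, 70.1 and 57.2 FPKM in NC+DMSO, 15.8, 14.9 and 29.1 in NC+VCR, 66.2, 73.7 and 78.1 in PTPN21+DMSO and 27.5, 33.4 and 34.6 in PTPN21+VCR. Every VCR library was lower, and NC+VCR replicate 3 lay apart from the others of its group. H2BC4 changed by -1.74 (standard error 0.215, limma adjusted p = 0.000127) in NC cells and by -1.17 (0.215, limma adjusted p = 0.00195) in PTPN21 cells. The 9 remaining tested H2B genes had means from 1.78 to 42.1 FPKM. H2BC8, H2BC9, H2BC15 and H2BC18 passed in both comparisons, H2BC7, H2BC13, H2BC17 and H2BC21 in NC cells alone, and H2BC11 in PTPN21 cells alone. The interaction tests of these last 5 genes did not reach the threshold.

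H3 genes were the least abundant of the classes, and the 4 tested genes split into a pair that fell strongly in both kinds of cell and a pair that passed in NC cells. H3C10 (ENSG00000278828), the highest, measured 19.5, 19.2 and 17.8 FPKM in NC+DMSO, 11.5, 7.16 and 11.3 in NC+VCR, 21.5, 18.7 and 23.6 in PTPN21+DMSO and 17.9, 16 and 14.1 in PTPN21+VCR. Both VCR groups were lower without overlap, by -0.88 (standard error 0.182, limma adjusted p = 0.00333) in NC cells and by -0.39 (0.182, limma adjusted p = 0.135) in PTPN21 cells, where the test was not passed. H3C2 measured 9.90, 7.47 and 11.1 FPKM in NC+DMSO, 2.31, 2.60 and 7.42 in NC+VCR, 5.53, 6.25 and 5.52 in PTPN21+DMSO and 5.45, 7.87 and 6.71 in PTPN21+VCR. NC+VCR replicate 3 came close to the lowest NC+DMSO library, and the PTPN21 groups overlapped. Its changes were -1.16 (standard error 0.311, limma adjusted p = 0.0130) and 0.17 (0.311, limma adjusted p = 0.722). After median ratio scaling the NC calls of H3C10 and H3C2 were lost, and that of H3C2 also in a fit of the 2 groups alone (limma adjusted p = 0.0619).

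H3C14 measured 4.92, 4.41 and 4.31 FPKM in NC+DMSO, 0.509, 0.308 and 0.332 in NC+VCR, 6.49, 6.70 and 6.84 in PTPN21+DMSO and 0.201, 0.605 and 0.220 in PTPN21+VCR. The VCR libraries all lay below 1 FPKM and the DMSO libraries all above 4. Its log2 changes were -2.0 (standard error 0.192, limma adjusted p = 2.43e-05) and -2.53 (0.192, limma adjusted p = 3.76e-06). H3C15 has the same 1656 bases, and its FPKM equalled that of H3C14 in 5 libraries. It changed by -1.98 (limma adjusted p = 2.62e-05) and -2.52 (limma adjusted p = 3.86e-06), values that cannot be separated from those of its copy.

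Among the 38 tested members, the largest fall on the log2(FPKM + 1) scale was that of H4C15 in NC cells and that of H4C14 in PTPN21 cells, both on chromosome 1. That order depends on the pseudocount: with 0.1 in place of 1, H4C15 changed by -2.70 in NC cells and H4C14 by -2.81 in PTPN21 cells, against -3.29 and -4.05 for the less abundant H3C14. H4C8 (ENSG00000158406), the most abundant, measured 36.0, 32.9 and 27.5 FPKM in NC+DMSO, 19.2, 17.9 and 23.7 in NC+VCR, 31.1, 37.7 and 33.1 in PTPN21+DMSO and 16.9, 12.8 and 18.7 in PTPN21+VCR. All VCR values were below the DMSO values, and the changes were -0.64 (standard error 0.173, limma adjusted p = 0.0134, against 0.337 after median ratio scaling and 0.0518 without NC+DMSO replicate 1) and -1.04 (0.173, limma adjusted p = 0.00106). H4C14 measured 24.8, 34.4 and 23.2 FPKM in NC+DMSO, 6.55, 3.46 and 6.64 in NC+VCR, 47.8, 42.8 and 40.5 in PTPN21+DMSO and 5.58, 5.98 and 6.86 in PTPN21+VCR. The VCR groups overlapped each other at a low level, while PTPN21+DMSO was above NC+DMSO in all libraries. H4C14 changed by -2.14 (standard error 0.221, limma adjusted p = 4.02e-05) and -2.65 (0.221, limma adjusted p = 7.24e-06). H4C15 measured 20.3, 22.9 and 17.8 FPKM in NC+DMSO, 2.23, 2.44 and 5.11 in NC+VCR, 30.1, 28.3 and 27.6 in PTPN21+DMSO and 4.86, 4.11 and 4.55 in PTPN21+VCR, and it changed by -2.38 (standard error 0.224, limma adjusted p = 2.10e-05) and -2.43 (0.224, limma adjusted p = 1.62e-05). The 2 genes share a run of 1547 bases, and their FPKM ratio ranged from 0.340 to 0.872, so reads may be split between them. H4C4 and H4C5 passed in NC cells alone, H4C12 in PTPN21 cells alone, and H4C3 and H4C9 in neither. With each near-identical pair counted once, 26 of 35 members were lower in NC cells and 19 of 35 in PTPN21 cells.

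**Figure D3:**
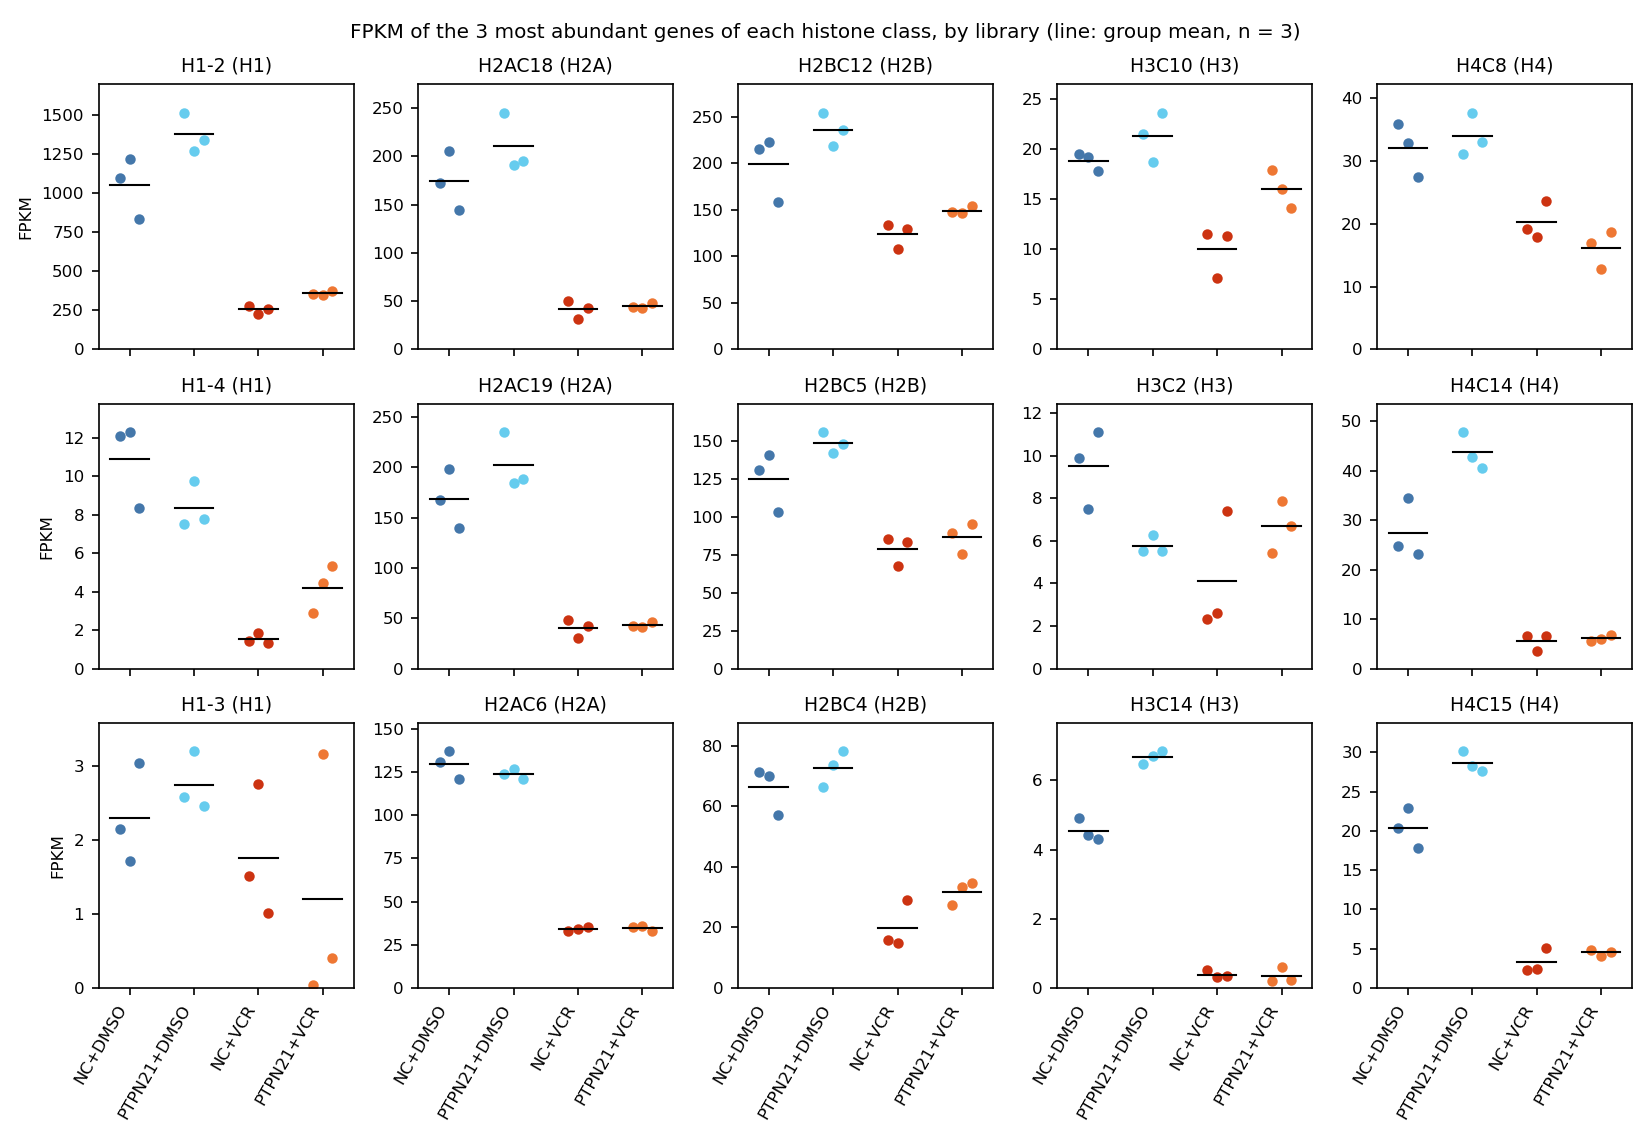
FPKM (y axis, linear from 0, own scale per panel) of the 3 most abundant genes of each class in each of the 12 libraries, by group, with a line at the group mean. In 14 of the 15 panels every NC+VCR library lies below every NC+DMSO library, and the exception is H1-3 (bottom left).

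The members lie in separate clusters, and the changes are given by chromosome as a description, with no test of the difference. In GENCODE 29 (GRCh38), the 11 members on chromosome 1 lie between 149782689 and 149887916, and the 53 placed members on chromosome 6 between 25726132 and 27893843. All 9 tested members on chromosome 1 were lower with VCR in NC cells, with a median log2 change of -2.0, against 20 of 29 on chromosome 6 with a median of -0.90. In PTPN21 cells 8 of the 9 and 14 of the 29 were lower, with medians of -2.20 and -0.77. Single genes of chromosome 6 changed as much as those of chromosome 1, among them H1-4 (-2.22 in NC cells), H1-2 (-2.03) and H2AC6 (-1.89). H2BC21 was the chromosome 1 gene that did not pass in PTPN21 cells (-0.43, limma adjusted p = 0.176). Of the 9 genes, 6 form 3 near-identical pairs, and H3C14 with H4C14 and H3C15 with H4C15 also overlap by 230 bases on opposite strands, so the 9 values are not separate measurements. The strand setting of the counting is not given in the sources used here. In all, 10 of the 37 tested members with a model overlap another gene, 8 of them on the opposite strand.

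**Figure D4:**
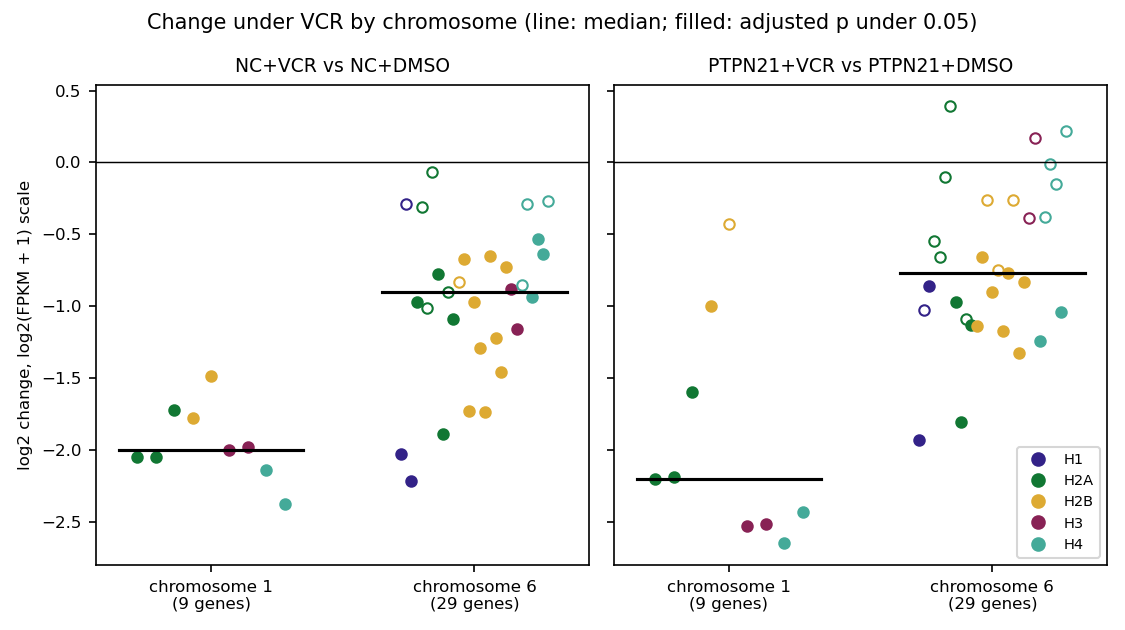
Log2 change (y axis, log2(FPKM + 1) scale) of the tested members on chromosome 1 (9 genes) and chromosome 6 (29 genes) in the 2 VCR comparisons, coloured by class, filled where the adjusted p was under 0.05, with a line at the median. The medians are -2.0 and -0.90 on the left and -2.20 and -0.77 on the right.

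H2A and H2B genes often face each other across a shared promoter region. Among members with a promoter entry, 10 such pairs had starts 194 to 248 bases apart. Both genes were tested in 8 of them. H2BC12 and H2AC12, both tested, also face each other by their gene models but are not among the 10. In the pair whose promoters are printed above, H2BC4 changed by -1.74 and -1.17 in NC and PTPN21 cells and H2AC6 by -1.89 and -1.81. H2BC8 and H2AC8 changed by -1.46 and -1.33 and by -1.09 and -1.13. In the pair H2AC15 and H2BC15 the values lay apart. H2BC15 (mean 42.1 FPKM) changed by -0.97 and -0.90 and H2AC15 (mean 1.76) by -0.07 and 0.39. Their models overlap by 393 bases on opposite strands. Some of the other tested pairs also differed. H2BC21 changed by -1.49 and -0.43 and H2AC20 by -1.72 and -1.60. H2BC7 changed by -1.22 and -0.26 and H2AC7 by -0.90 and -1.09. H2BC13 changed by -1.73 and -0.26 and H2AC13 by -1.01 and -0.10. H2BC17 changed by -1.29 and -0.75 and H2AC17 by -0.78 and -0.97. H2BC11 changed by -0.83 and -1.14 and H2AC11 by -0.97 and -0.55. The length of the annotated 3′ end was also compared. The 17 tested members with at least 100 bases after the stem-loop had a median change of -1.46 in NC cells and -1.0 in PTPN21 cells, the 6 with a shorter end -1.41 and -0.95, and the 14 with no stem-loop in the model -0.84 and -0.92. These ranges overlapped, and no test of the difference was made.

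The 2 VCR comparisons share no libraries, but the spread of each gene was estimated from all libraries together. Of the members called lower, 20 were lower in both, which is 69.0% of the 29 in NC cells and 90.9% of the 22 in PTPN21 cells. The share of all tested genes called lower in both was not computed, so this overlap is not read as a trait of the members. In NC cells alone 9 passed (H2AC11, H2BC7, H2BC13, H2BC17, H2BC21, H3C2, H3C10, H4C4 and H4C5) and in PTPN21 cells alone 2 passed (H2BC11 and H4C12). The difference itself was tested by the interaction of PTPN21 and VCR. No member passed it in limma, and 6 had an unadjusted p under 0.05 (15.8%, beside 14% of all tested genes). Of all tested genes 0.129% passed the adjusted test, 0.104% with a lower and 0.0259% with a higher value. The largest of these 6, named after their values were seen, were H2BC13 (1.47, standard error 0.417, limma adjusted p = 0.189), H1-4 (1.36, 0.326, limma adjusted p = 0.128) and H3C2 (1.33, 0.440, limma adjusted p = 0.231). A smaller fall in PTPN21 cells was thus not shown for any single member.

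PTPN21 cells were compared with NC cells in each treatment, with the same libraries as above serving again. With DMSO, no member passed the test in limma, 11 had an unadjusted p under 0.05 (28.9%, beside 25.6% of all tested genes), and 6.34% of all tested genes were called at the adjusted threshold, 3.69% lower and 2.65% higher. In 10 members all PTPN21+DMSO libraries lay above all NC+DMSO libraries (11.5% of all tested genes did) and in 5 below (21.9%). The median log2 difference of the members was 0.15 (-0.12 after a correction for GC content and length), beside -0.14 over all tested genes. H1-2 was higher in all PTPN21+DMSO libraries by 0.40 (standard error 0.139, limma adjusted p = 0.0988), and H4C14 by 0.67 (0.221, limma adjusted p = 0.0879). Under VCR the median difference was 0.28 (0.12 after the same correction), beside 0.03 over all tested genes. In this comparison 2 members were higher in PTPN21+VCR than in NC+VCR (5.26%). Of all tested genes 1.0% were called higher, 0.82% lower and 1.82% in either direction. In 10 members the PTPN21+VCR libraries all lay above the NC+VCR libraries (12.3% of all tested genes) and in none below (10.2%). H1-4 was higher by 1.02 (standard error 0.231, limma adjusted p = 0.0489) with the values given above. H4C5 measured 2.27, 3.69 and 2.83 FPKM in NC+VCR and 5.80, 5.57 and 7.08 in PTPN21+VCR, without overlap, and was higher by 0.87 (standard error 0.192, limma adjusted p = 0.0447). Both p-values lie close to the threshold, and each call held in 4 of 21 alternative settings, with limma adjusted p from 0.0304 to 0.166 for H1-4 and from 0.0340 to 0.157 for H4C5. H4C5 also measured 4.75, 4.81 and 4.29 FPKM in NC+DMSO and 6.06, 7.63 and 7.16 in PTPN21+DMSO, a difference of 0.50 that did not pass (limma adjusted p = 0.131). The greater depth estimated for the PTPN21 libraries, which is uncertain, goes with every one of these differences and cannot be told apart from the construct.

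Genes that accompany histone supply are given from lists chosen for their role, with earlier results of these data known. The S phase list held replicative helicase subunits, nucleotide synthesis enzymes, cyclins E and A and other replication factors. Of its 22 genes, 16 fell with VCR in NC cells and 14 in PTPN21 cells, and none rose. The list medians were -0.75 and -0.58, beside -0.36 and -0.17 over all tested genes. Beside these counts and those of the lists below, 28.3% of all tested genes were called lower and 7.91% higher in NC cells. In PTPN21 cells the shares were 19.3% and 9.22%. GINS2, a subunit of the helicase complex, changed by -1.58 (limma adjusted p = 2.39e-05) and -1.36 (limma adjusted p = 6.74e-05). CCNE2, cyclin E2, changed by -1.34 (limma adjusted p = 0.00324) in NC cells and by -0.45 (limma adjusted p = 0.247) in PTPN21 cells. Its interaction did not pass (0.89, limma adjusted p = 0.343). CCNE2 was already lower in PTPN21+DMSO than in NC+DMSO (-1.09, limma adjusted p = 0.041, passed in 6 of 20 alternative settings). PCNA, the sliding clamp of the polymerases, did not pass in either (-0.20 and -0.18).

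Among 13 histone chaperones and chromatin assembly genes, 8 fell and 1 rose in NC cells, and 7 fell and 2 rose in PTPN21 cells. IPO4, an importin that carries H3 and H4 into the nucleus, changed by -1.73 (limma adjusted p = 0.00250) and -1.65 (limma adjusted p = 0.00387). ASF1A, an H3-H4 chaperone, changed by -1.02 and -0.87, and the CAF-1 subunits CHAF1A and CHAF1B by -0.66 and -0.79 in NC cells and by -0.66 and -0.81 in PTPN21 cells, all past the threshold. NAP1L1, an H2A-H2B chaperone, rose from 681 ± 28.1 to 1425 ± 85.1 FPKM (SD, n = 3) in NC cells (1.06, limma adjusted p = 1.06e-05) and by 0.43 in PTPN21 cells. In the list of histone gene transcription and 3′ end processing, 5 of 15 tested genes fell in NC cells. In PTPN21 cells 2 of the 15 fell (LSM10 and SRRT) and 1 rose (CPSF3), none of them among the 5 called in NC cells. Of all tested genes 28.3% and 19.3% were called lower in the 2 comparisons. The list medians, -0.39 and -0.15, were near those of all tested genes, -0.36 and -0.17. SLBP, which binds the stem-loops printed above, measured 113, 107 and 122 FPKM in NC+DMSO and 61.1, 84.1 and 70.2 in NC+VCR, a change of -0.67 (standard error 0.136, limma adjusted p = 0.00298, and 0.197 after median ratio scaling). In PTPN21 cells SLBP changed by -0.36 (limma adjusted p = 0.0664), and its interaction did not pass (0.31, limma adjusted p = 0.478). NPAT had 1.36 to 7.02 FPKM over all libraries and did not pass in either comparison.

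Of 11 replication-independent histone variants, which are made throughout the cell cycle as polyadenylated mRNA in most cases, 8 were tested. In NC cells 3 fell and 1 rose, with a median of -0.01, and in PTPN21 cells 3 fell and 1 rose, with a median of -0.41. Of all tested genes 28.3% and 19.3% were called lower, and the medians were -0.36 and -0.17. H2AX, whose mRNA can also end in a stem-loop, measured 60.6, 76.4 and 66.6 FPKM in NC+DMSO and 30.4, 15.6 and 18.3 in NC+VCR, and it changed by -1.67 (limma adjusted p = 0.000116) and -1.55 (limma adjusted p = 0.000211). H3-3B, which encodes the replacement histone H3.3, changed by 0.35 (limma adjusted p = 0.0910) and 0.61 (limma adjusted p = 0.0100). H3-3A, with the same protein product, changed by -0.43 (limma adjusted p = 0.0471, passed in 7 of 21 alternative settings) and -0.79 (limma adjusted p = 0.00281). CENPA, the centromeric H3, measured 3.79, 8.62 and 17.1 FPKM in NC+DMSO, 48.3, 64.8 and 69.3 in NC+VCR, 46.0, 47.2 and 62.4 in PTPN21+DMSO and 23.1, 55.6 and 35.8 in PTPN21+VCR, so NC+DMSO alone was low.

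How RNA was selected for the libraries is not given in the sources used here, and members without a poly(A) tail depend on it. Among 15 RNAs that lack a poly(A) tail, 5 were tested, and all 5 rose in NC cells and 3 in PTPN21 cells. Of all tested genes 7.91% and 9.22% were called higher. RN7SK measured 42.6, 51.8 and 31.6 FPKM in NC+DMSO and 231, 292 and 285 in NC+VCR (2.67, limma adjusted p = 1.31e-06), and it rose by 2.46 in PTPN21 cells. The summed level of the 15 was 296 to 391 FPKM in NC+DMSO, 904 to 1080 in NC+VCR, 462 to 621 in PTPN21+DMSO and 1187 to 1466 in PTPN21+VCR, opposite in direction to the histone sum. The part of RNA selection in the histone values was not tested.

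**Figure D5:**
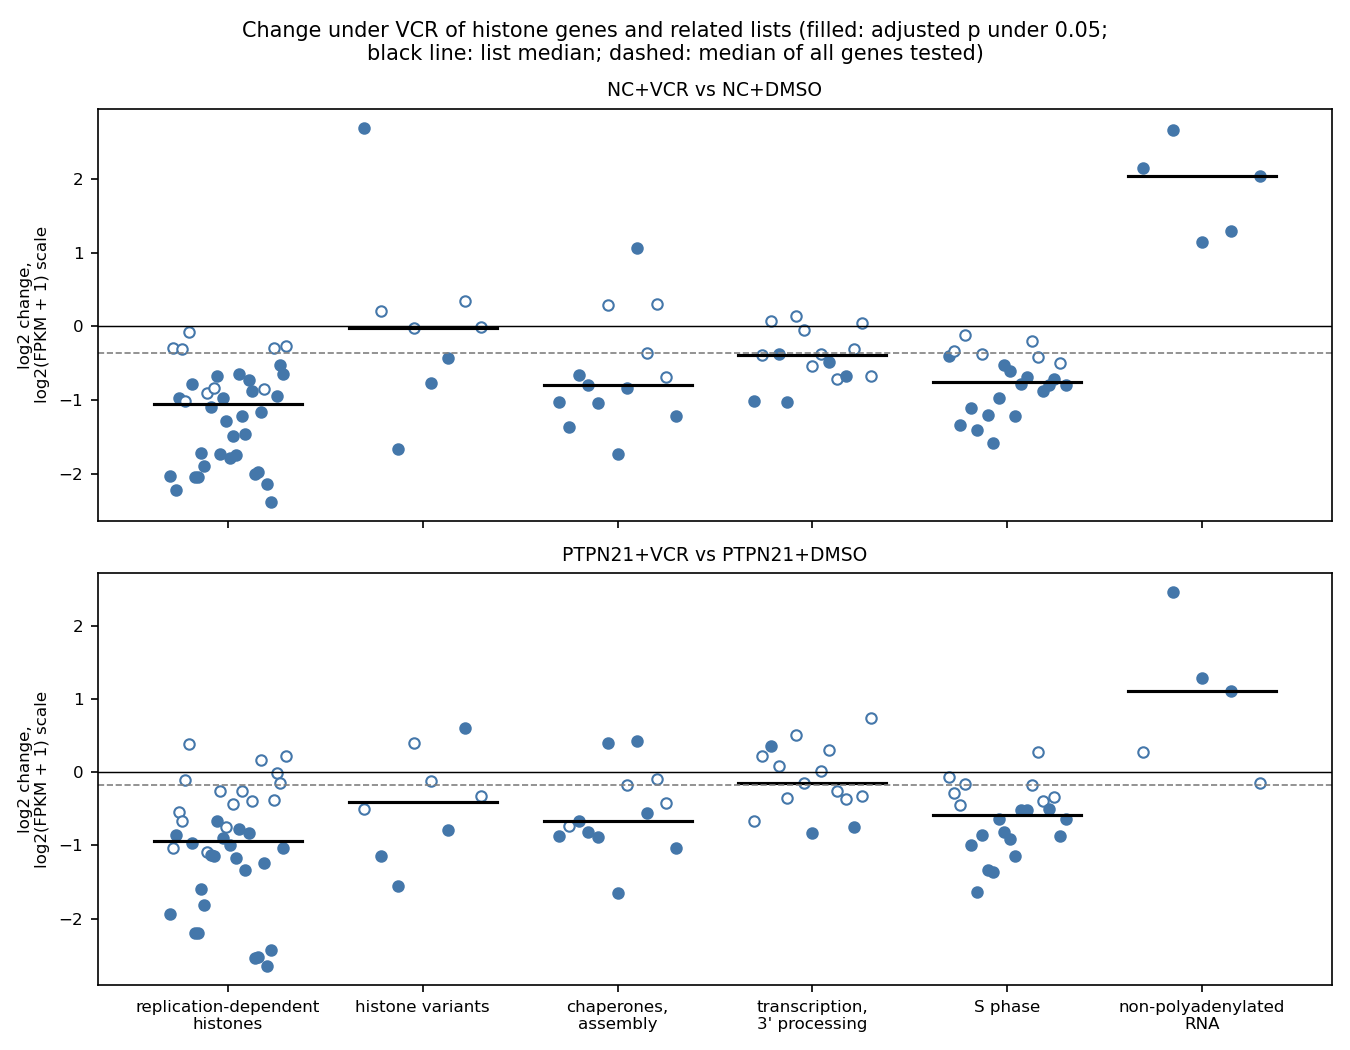
Log2 change (y axis, log2(FPKM + 1) scale) of the tested genes of 6 lists in NC cells (top) and PTPN21 cells (bottom). Points are genes, filled where the adjusted p was under 0.05, black lines are list medians and the dashed line is the median of all tested genes. The histone, S phase and chaperone medians lie below the dashed line in both panels, and the non-polyadenylated RNA medians, 2.04 and 1.11, lie above it.

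The 28 members outside the filter comprised 3 H1, 5 H2A, 5 H2B, 9 H3 and 6 H4 genes. Of these, 13 were listed at 0 in all 12 libraries, among them 5 of the 13 H3 genes. Without counts, a value of 0 may also be a failed estimate for genes with near-identical copies. The highest of the 28 was H4C11, at 0.384, 0.884 and 1.60 FPKM in NC+DMSO and 0, 0.202 and 0.486 in NC+VCR. Among those with a transcript model, 19 of 27 had models that ended at the stop codon, against 11 of 37 among the tested members, so annotated length and detection went together here.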

How the data were processed

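The authors deposited 1 table of FPKM for 60671 genes with human Ensembl identifiers. Per the submitters' processing notes, fastp and Bowtie2 were used and mm10, a mouse build, is listed. The counting program and annotation are not given in the sources used here. Groups came from the sample labels. From the deposited FPKM, log2(FPKM + 1) was fitted with limma 3.58.1 (R 4.3.3) with an intensity trend, in 1 model of 4 group means, for the 11591 genes with a mean of at least 1 FPKM. The fit was tested on simulated data. Depth was estimated only by searching between 13000000 and 26000000 fragments, where 36.3% to 49.4% of low values were whole to within 0.1, and a step of 1 fragment could not be separated from 2. The members and lists were chosen with earlier results of these data known. Named genes were the 3 most abundant members of each class, the members with the 3 largest rises and falls past the threshold in each comparison, and up to 4 genes past the threshold per list, of which a selection is shown. Further list genes (PCNA, CHAF1A, CHAF1B, NPAT) were chosen after their values were seen. Gene models were GENCODE 29. Python 3.11.15 served for tables and plots.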

Additional observations from a re-analysis of the deposited data

How the results depend on the processing

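The settings tried were TPM and median ratio scaling, a mean of at least 5 FPKM or no filter, a pseudocount of 0.1, the 2 groups alone, a replicate block, a GC and length correction (also with the block) and leaving out each library. No called direction reversed. Shares of all tested genes were given above for the fit as deposited only, so the counts under other settings have none beside them. Members called with VCR in NC cells numbered 29, 19 at a mean of at least 5 FPKM (22 tested), 18 after median ratio scaling, and 25 to 29 without each library in turn. In PTPN21 cells they numbered 22, 17 at a mean of at least 5 FPKM (22 tested), 18 with the GC and length correction (37 tested), 20 after median ratio scaling, and 19 to 22 without each library. For PTPN21+DMSO against NC+DMSO the count was 0, and 0 to 3 without each library (3 without NC+DMSO replicate 2, and 2 without NC+VCR replicate 2). For PTPN21+VCR against NC+VCR the count was 2. It was 4 with a pseudocount of 0.1, 1 with TPM scaling, 0 with no filter, median ratio scaling, the 2 groups alone or a GC and length correction with or without the block, and 0 to 4 without each library (4 without NC+DMSO replicate 3, 1 without NC+VCR replicate 2, 2 without NC+VCR replicate 3, and 0 without any other). The interaction count was 0 throughout. The log2 ratio of summed FPKM was -1.19, -1.36 and 0.47 after median ratio scaling for VCR in NC cells, VCR in PTPN21 cells and PTPN21 under DMSO, against -1.58, -1.54 and 0.27 as deposited. The cause of these shifts was not tested. With the replicate block the counts were 28 (NC), 22 (PTPN21), 0, 0 and 0. Same-numbered libraries did not vary together (correlations of -0.145 to 0.0583 over 18 pairs), so the numbers were not taken to pair them. Depth limits genes near 1 FPKM most.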
